A study of Homo sapiens with 4 samples.

Results

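Importin 9 (IPO9), exportin 6 (XPO6) and the MICAL genes MICAL1, MICAL2 and MICAL3 were examined as the genes that carry actin into and out of the nucleus and oxidize it. They were found by gene symbol in the authors' deposited DESeq2 table of CFL1 knockout against control. All 5 were found among its 59885 genes, and all 5 are among the 16629 genes to which the table gives an adjusted p. All 4 libraries are labelled as PANC-1, an established line from a human pancreatic ductal adenocarcinoma. The groups were 2 libraries of control cells and 2 libraries of cells in which CFL1, the gene of the actin-severing protein cofilin-1, had been knocked out. How the knockout was made, what the control cells received, whether either group is a single clone and whether cultures were separate are not given in the sources used here, so a p measures the spread between libraries, which may be technical. The comparison asks which transcripts differ when cofilin-1 is lost.

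Actin enters the nucleus on importin 9, which takes it up together with cofilin, and leaves it on exportin 6, which binds actin together with profilin. Both receptors belong to the importin beta family, whose members load and release cargo under control of the GTPase Ran. MICAL proteins are flavin monooxygenases that oxidize methionines of actin and so take filaments apart. MICAL2 is known to act on actin in the nucleus, which promotes gene activation by the coactivators MRTF-A and MRTF-B with the transcription factor SRF. Of the methionine sulfoxide reductases of the MSRB group, MSRB1 is known to reverse the oxidation of actin.

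Values per library are normalized counts, whole reads recovered from the table's base means (the mean normalized count over the 4 libraries) and divided by the library's size factor. The letters A and B only name libraries and do not map to the numbers in the labels. Recovered reads summed to between 12339135 and 14625886 per library. Control B stood apart. Over 17022 genes whose base mean was 10 or more, it differed by more than 4-fold from control A at 3499 genes, while control A and knockout A differed so at 138 and the knockouts from each other at 127. The keratin genes KRT8 and KRT18 and the mesenchymal marker VIM were abundant, with base means from 12890 to 20850. The ductal keratin KRT19, however, gave 2481 normalized counts in control B, 1.82 in control A and 0 in either knockout. KRT7, another ductal keratin, gave 108 in control B, 3551 in control A, and 4000.4 and 3683 in the knockouts. Markers of other cells were low: summed over 4 leukocyte markers they lay between 1.12 and 27.4, over 2 endothelial markers between 8.94 and 38.2, and all 3 acinar markers were at 0 in every library. Of 3 fibroblast markers LUM was at 0, DCN did not exceed 4.43, and COL1A1 was at 354 and 1574 in controls A and B and at 687 and 556 in the knockouts. In bulk RNA, fewer cells of a type and less RNA per cell cannot be told apart. Whether control B came from the same cells as the other libraries was not tested, so a mean of the controls may not stand for one kind of cell, and each member is given against each control. The part of the keratin and collagen differences between libraries in the results below was not tested.

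The targeted gene CFL1 had lower levels in each knockout than in each control, at 2285 and 2487 normalized counts against 6276 (control A) and 13761 (control B), so the controls themselves differed 2.19-fold. The authors' deposited table puts CFL1 at -2.07 on the log2 scale, with 0.454 as standard error and a DESeq2 adjusted p of 0.00168. With limma on the recovered reads the adjusted p of CFL1 was 0.724. Without control B it was 0.344, at a log2 difference of -1.40.

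None of the 5 members passed the authors' test, their DESeq2 adjusted p being 0.224 for XPO6, 0.365 for MICAL1, 0.383 for MICAL2, 0.657 for IPO9 and 0.770 for MICAL3. Among all genes tested, 93 of 16629, or 0.559%, had a DESeq2 adjusted p under 0.05. The table also marks genes whose unadjusted p is under 0.05, and 3 members, XPO6, MICAL1 and MICAL2, carry the mark for lower in the knockouts, with p of 0.00794, 0.0363 and 0.0447. Of all tested genes 9.49% have that p with a lower and 3.13% with a higher level in the knockouts. The 3 marks differ in what lies beneath them. Both knockouts lay below both controls at XPO6 and at MICAL1, as in 21.0% of tested genes with recovered reads. The nearest libraries were -0.35 and -0.094 apart on the log2 scale. MICAL1 and MICAL2 were high in control B alone.

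**Figure D1:**
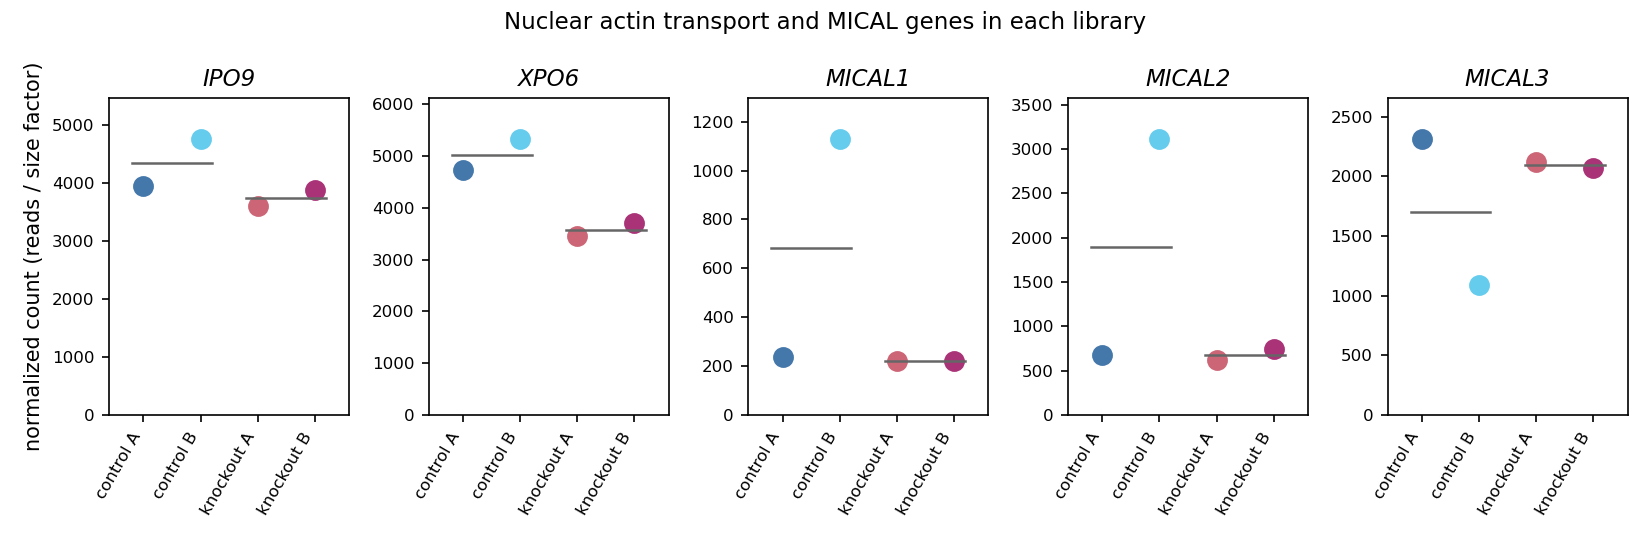
Normalized counts (vertical axis, reads divided by size factor, from 0) of the 5 genes in the 4 libraries, with a grey line at the mean of each group of 2. XPO6 lies between 3451 and 3709 in the knockouts and at 4730 and 5322 in the controls, whereas MICAL1 and MICAL2 are high and MICAL3 is low in control B only.

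IPO9 (ENSG00000198700.9_2_IPO9), the import receptor for actin bound to cofilin, had 3941 (control A) and 4748 (control B) normalized counts, and 3598 (knockout A) and 3868 (knockout B). Both knockouts were below both controls, as in 21.0% of tested genes with recovered reads. However, knockout B and control A were only 0.027 apart on the log2 scale, while the controls differed by 0.27. The authors' deposited table puts the log2 change of IPO9 at -0.22 with 0.210 as standard error, which makes a 95% interval from -0.63 to 0.19. The interval holds 0 and also a decrease as large as the estimate for XPO6. The mean of the knockouts was 94.7% of control A and 78.6% of control B. An antisense gene, IPO9-AS1, overlaps IPO9, and whether reads were counted by strand is not given in the sources used here. IPO9-AS1 itself had between 2 and 10 reads per library.

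XPO6 (ENSG00000169180.11_3_XPO6), the export receptor for actin bound to profilin, had 4730 (control A) and 5322 (control B) normalized counts, and 3451 (knockout A) and 3709 (knockout B). The groups did not overlap, and every value rested on at least 3439 reads. The mean of the knockouts was 71.2% of the mean of the controls, 75.7% of control A and 67.3% of control B. The authors' deposited table puts the log2 change of XPO6 at -0.49 with 0.184 as standard error, which makes a 95% interval from -0.85 to -0.13, and after adjustment over all genes it did not pass. On the log2 scale the controls differed by 0.17 and the knockouts by 0.10, and the highest knockout lay -0.35 from the lowest control. Among tested genes with recovered reads, both knockouts lay below both controls in 21.0%, and by at least the distance seen at XPO6 in 5.12%. Among the 4176 of them with a base mean of 1000 or more, that distance was reached by 3.66%. With limma on the recovered reads the log2 difference of XPO6 was -0.49 with all libraries, at an adjusted p of 0.724. It was -0.57 without control A and -0.40 without control B.

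**Figure D2:**
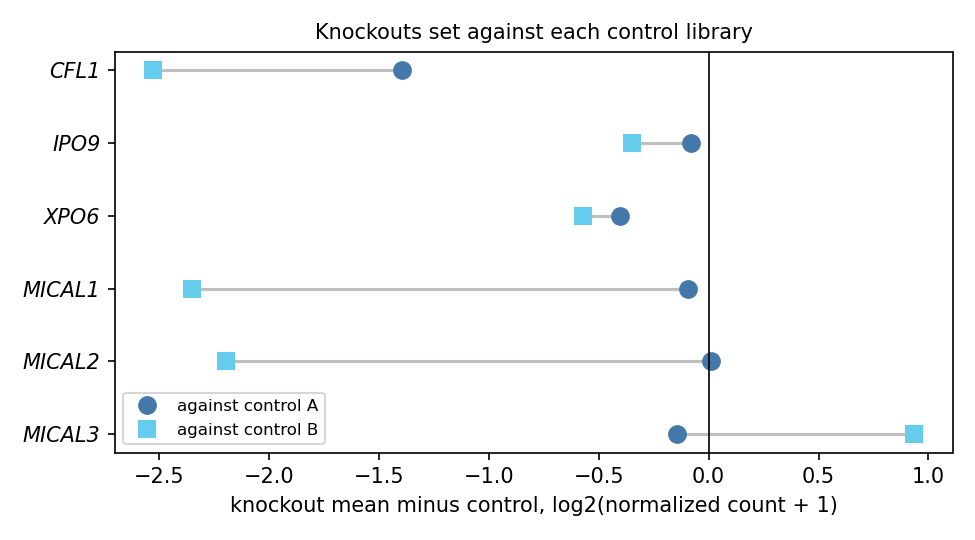
Mean of the knockouts minus a single control on the log2(normalized count + 1) scale (horizontal axis) for CFL1 and the 5 genes, against control A (circles) and control B (squares). XPO6 is below 0 against both controls (-0.40 and -0.57), while MICAL1, MICAL2 and MICAL3 lie within 0.15 of control A and far from control B.

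Reads of IPO9 and XPO6 were also set against each other within a library, which removes the size factor. IPO9 gave 45.4% of the reads of the pair in control A (95% exact Clopper-Pearson interval 44.4% to 46.5%) and 47.1% in control B (46.1% to 48.2%). In the knockouts it gave 51.0% in A (49.9% to 52.1%) and 51.1% in B (49.9% to 52.2%). These intervals cover counting error only, since reads without molecular identifiers are not independent molecules. XPO6 had more reads than IPO9 in both controls, while in both knockouts the interval included equal reads. Equal reads are not equal levels, because reads also depend on gene length. Per kilobase of the longest coding transcript, XPO6 stayed above IPO9, at 781 against 315 in knockout A and 839 against 338 in knockout B. The log2 ratio of IPO9 to XPO6 was 0.27 higher in the knockouts, at a mean of 0.060 against -0.21, with a distance of 0.099 between the controls and of 0.00062 between the knockouts. An exact two-sided permutation test over the 4 libraries gave p = 0.333, the smallest this design can give, so it cannot pass 0.05. The difference was between 0.23 and 0.32 when each library was left out. Of 15 importin and exportin receptors with reads in every library, 9 had a ratio to XPO6 that put both knockouts above both controls, IPO9 among them, and 2 had a ratio with both knockouts below. Of 15673 tested genes with reads in every library, 55.0% had such a higher ratio and 3.99% such a lower one, so the count of 9 of 15 is near that of all genes. These ratios share XPO6, which was itself lower in both knockouts, and are not independent of each other.

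**Figure D3:**
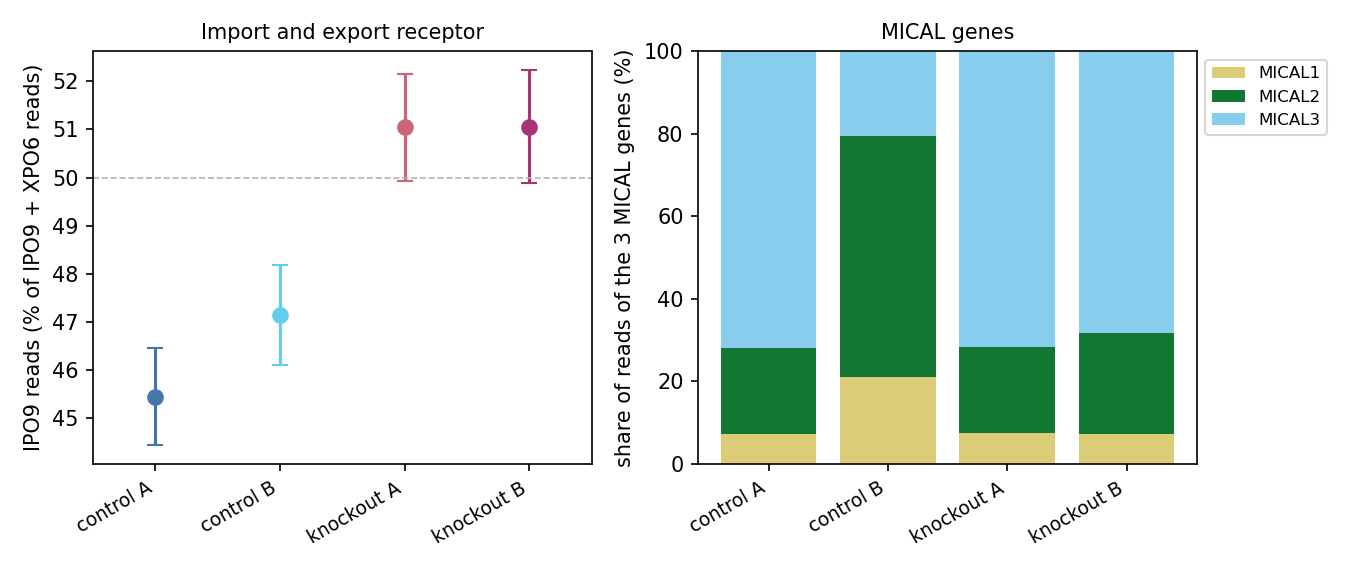
Left, IPO9 reads as a percentage of IPO9 plus XPO6 reads in each library with 95% exact intervals (vertical axis not from 0, dashed line at equal reads); the controls are at 45.4 and 47.1 and the knockouts at 51.0 and 51.1. Right, share of MICAL1, MICAL2 and MICAL3 in the reads of the 3 genes; MICAL3 gives 68.3% to 71.8% in 3 libraries and 20.5% in control B.

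The stretches before the start sites of IPO9 and XPO6 are printed because these are the import and export receptors compared here and RefSeq gives each a single start. They are the 150 bases upstream of the RefSeq start on build GRCh38.p14, 5′ to 3′ on the gene's strand, for IPO9 chr1:201829007-201829156 on the plus strand and for XPO6 chr16:28211966-28212115 on the minus strand. Capitals mark matches on either strand to the GC box GGGCGG, which reads CCGCCC here, and to CCAAT, which reads ATTGG here. No match overlaps another.
IPO9: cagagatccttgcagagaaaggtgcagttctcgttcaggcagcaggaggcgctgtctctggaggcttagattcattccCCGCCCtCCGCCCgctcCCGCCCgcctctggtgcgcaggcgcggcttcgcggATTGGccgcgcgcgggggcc
XPO6: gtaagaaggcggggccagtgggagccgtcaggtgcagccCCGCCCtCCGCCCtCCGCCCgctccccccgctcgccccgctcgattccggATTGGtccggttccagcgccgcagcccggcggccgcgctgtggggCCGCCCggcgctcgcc
Both windows are rich in G and C, at 68.7% for IPO9 and 79.3% for XPO6. IPO9 holds 3 GC boxes and XPO6 holds 4, and each holds 1 CCAAT in the reverse direction, 20 to 16 bases before the start in IPO9 and 61 to 57 bases before it in XPO6. Over the full windows of 300 bases in the RefSeq table, a GC box is found in 45.0% and CCAAT in 34.6% of 35116 windows. MICAL1, MICAL2 and MICAL3 each have 2 start windows in that table, and which start these cells use was not measured. A GC box is in 1 window of MICAL1 and 1 of MICAL3 and in neither of MICAL2, and CCAAT is in none of the 6. A match describes the letters and says nothing on binding.

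Of the 20 importin and exportin receptor genes, XPO6 and IPO9 included, 0 passed the authors' adjusted p. A fold change below 0 was seen in 14 and above 0 in 6, where 8571 and 8058 of all 16629 genes tested had it. The median log2 fold change was -0.24, against -0.026 over all genes tested. By an unadjusted p under 0.05, 3 were lower (TNPO1, XPO4 and XPO6) and 0 higher, against 9.49% and 3.13% of all genes tested. In order of fold change from the lowest, XPO6 was number 7 and IPO9 number 11 of the 20. TNPO1, transportin-1, which imports RNA-binding proteins, had 6062 and 7054 normalized counts in the knockouts against 10526 and 14979 in controls A and B, at -0.96 on the log2 scale and a DESeq2 adjusted p of 0.0967 in the authors' deposited table. XPO4, another exportin, had 1493 and 1549 in the knockouts against 2073 and 2624, at -0.63 and 0.221 in the authors' deposited table. Among 17 receptors with recovered reads, 5 had both knockouts below both controls (TNPO1, TNPO2, XPO4, XPO6 and IPO9) and 2 had both above (TNPO3 and RANBP6), where 21.0% and 24.1% of tested genes with recovered reads did so. The receptor gene with the highest base mean was IPO7, at 17030, with a log2 fold change of -0.39 in the authors' deposited table (adjusted p 0.683). Base means are not corrected for gene length. Set against control A the median of the 17 was -0.079, and set against control B it was -0.38, where all genes tested had 0.0077 and 0.024.

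**Figure D4:**
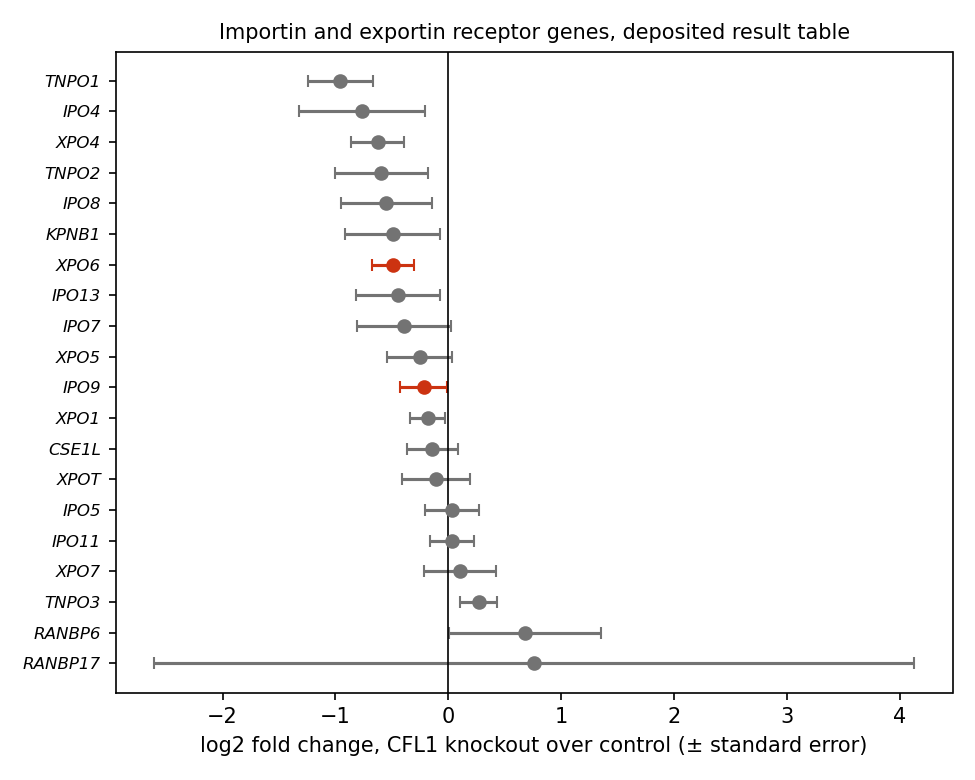
Log2 fold change of CFL1 knockout over control with its standard error (horizontal axis) for 20 importin and exportin receptor genes, from the authors' deposited DESeq2 table, with IPO9 and XPO6 in red. XPO6 at -0.49 sits among receptors with estimates from -0.96 (TNPO1) to 0.76 (RANBP17), and 0 of the 20 passed an adjusted p under 0.05.

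The Ran cycle and the importin alpha adaptors, which bind import signals for importin beta, also had 0 called genes, of 15. Their median log2 fold change was -0.18. By an unadjusted p under 0.05, 2 were lower and 0 higher, against 9.49% and 3.13% of all genes tested. The 2 were the adaptor genes KPNA3 and KPNA4. KPNA3 had 985 and 1178 normalized counts in the knockouts against 1635 (control A) and 3018 (control B), and its adjusted p in the authors' deposited table was 0.208. KPNA4 had 2918 and 3425 against 3672 (control A) and 9936 (control B), with an adjusted p of 0.374 there. Over the 14 genes of this list with recovered reads the median was -0.017 when set against control A and -0.41 when set against control B. RAN itself had the highest base mean of the list, at 13374, and a log2 fold change of 0.13 in the authors' deposited table (adjusted p 0.719).

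Genes of the actin that is moved and of the proteins it travels with had 0 called of 6 tested genes. All 6 had a fold change below 0, with a median of -0.80. Of all 16629 genes tested, 8571 were below 0, with a median of -0.026. By an unadjusted p under 0.05, 4 of the 6 (ACTB, PFN2, CFL2 and DSTN) were lower and 0 higher, against 9.49% and 3.13% of all genes tested. ACTB, the gene of beta-actin, has a log2 fold change of -0.61 in the authors' deposited table, at an unadjusted p of 0.00253 and an adjusted p of 0.153. ACTG1, the gene of gamma-actin, with the highest base mean of the list, has -0.53 there with an adjusted p of 0.669. PFN2, a profilin gene, had 3099 and 3626 normalized counts in the knockouts against 4486 (control A) and 6233 (control B). CFL2, which encodes the muscle-type cofilin, had 702 and 824 against 978 and 2815, and DSTN, which encodes the related destrin, 5079 and 5416 against 6621 and 13425. These 3, the tested genes of the list with recovered reads, had both knockouts below both controls, as 21.0% of all such genes did. Set against control A the median of these 3 was -0.36, and set against control B it was -1.36. Their adjusted p in the authors' deposited table were 0.277 for PFN2, 0.313 for CFL2 and 0.335 for DSTN.

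MICAL1 (ENSG00000135596.17_3_MICAL1), a MICAL of the cytoplasm, had 235 (control A) and 1128 (control B) normalized counts, and 220 in each knockout. Control B was 4.79-fold above control A, and the other 3 libraries lay close together. Both knockouts were below both controls, as in 21.0% of tested genes with recovered reads, with the nearest libraries -0.094 apart on the log2 scale. The recovered reads of MICAL1 were 259 in control A against 249 and 204 in the knockouts. MICAL1 stands at -1.63 on the log2 scale in the authors' deposited table (standard error 0.778). Against control A alone the difference was -0.096, and with limma without control B its adjusted p was 0.607.

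MICAL2 (ENSG00000133816.13_3_MICAL2), the nuclear member of the family, had 672 (control A) and 3111 (control B) normalized counts, and 620 (knockout A) and 740 (knockout B). Control A lay between the knockouts, so the groups overlapped, and control B was 4.63-fold above control A. MICAL2 stands at -1.48 on the log2 scale in the authors' deposited table (standard error 0.735). Set against control A the difference was 0.012, and set against control B it was -2.20, so that leaving out control B turned its sign. A neighbouring gene, MICALCL, which carries sequence like the end of MICAL proteins, had between 4 and 12 reads per library.

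MICAL3 (ENSG00000243156.7_3_MICAL3), which is known for a role in vesicle fusion and cell division, went the other way in control B. It had 2311 (control A) and 1093 (control B) normalized counts, and 2117 (knockout A) and 2069 (knockout B). Both knockouts lay between the controls. MICAL3 stands at 0.30 on the log2 scale in the authors' deposited table (standard error 0.445), a 95% interval from -0.57 to 1.17. Set against control A the difference was -0.14, and set against control B it was 0.94, so that leaving out control B again turned the sign.

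Without control A, limma called all 3 MICAL genes, MICAL1 and MICAL2 lower and MICAL3 higher in the knockouts, with adjusted p of 0.0262, 0.0314 and 0.0264. That fit sets the knockouts against control B alone and called 33.5% of 24705 genes. Without control B limma called 0 genes, with 3183 at an unadjusted p under 0.05. A level of control B more than 4-fold above control A, as at MICAL1 and MICAL2, was seen in 7.71% of tested genes with recovered reads. A level more than 2-fold below, as at MICAL3, was seen in 24.3%. The knockout mean lay within 0.15 log2 of control A, as it did for all 3, in 33.5% of these genes.

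The make-up of the MICAL reads showed the same split. MICAL3 gave 71.8% of the reads of the 3 genes in control A, 71.6% in knockout A and 68.3% in knockout B, but 20.5% in control B. MICAL2 gave 20.9%, 21.0% and 24.4% in the same 3 libraries and 58.3% in control B. MICAL1 gave between 7.26% and 7.46% in those 3 and 21.2% in control B. Shares of reads depend on gene length as well as on the number of RNA molecules. Summed over the 3 genes the normalized counts were 2957 and 3029 in the knockouts against 3218 (control A) and 5331 (control B).

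Levels were compared between genes only per kilobase, using the longest coding transcript of each gene in GENCODE release 29. In control A there were 1070 normalized counts per kilobase for XPO6, 345 for IPO9, 245 for MICAL3, 114 for MICAL2 and 64.0 for MICAL1. Both knockouts had the same order. XPO6 had the highest level per kilobase in all 4 libraries, also with the length of all exons merged. In control B MICAL2 came second at 530 and MICAL3 last at 116. With merged exons IPO9 was second in every library, and MICAL1 and MICAL2 changed places in control A, control B and knockout A, so those neighbours have no settled order.

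Around the MICAL genes, 21 genes were examined that encode methionine sulfoxide reductases, resemble MICAL or are known partners of it, such as Rab GTPases and plexins. Of 19 tested, 0 passed. By an unadjusted p under 0.05, 3 were lower (RAB1A, RAB10 and SEMA3A) and 0 higher, against 9.49% and 3.13% of all genes tested. RAB10, which encodes a Rab GTPase that binds MICAL proteins, had the highest base mean of the list. It had 2323 and 2519 normalized counts in the knockouts against 3314 (control A) and 5637 (control B), with an adjusted p of 0.257 in the authors' deposited table. SEMA3A, the gene of a secreted semaphorin, had 11.5 and 12.9 in the knockouts against 3.64 (control A) and 589 (control B). Of the MSRB reductase genes, MSRB2 was higher in both knockouts, at 152 and 148 against 115 and 107. Its adjusted p in the authors' deposited table was 0.592. Such an order of the libraries was found in 24.1% of tested genes with recovered reads. MSRB1, the reductase known to repair actin, overlapped between the groups, with 354 and 317 in the knockouts against 407 and 303. MSRB3 had 255 and 307 in the knockouts against 234 (control A) and 1332 (control B), high in control B alone as MICAL1 and MICAL2 were. The MICAL-like genes MICALL1 and MICALL2, which lack the oxidizing domain, had both knockouts below both controls. Their nearest libraries lay -0.056 and -0.15 apart on the log2 scale. Of the 19 tested genes of the list, 7 had both knockouts below both controls and 5 had both above. Among all tested genes with recovered reads, 21.0% and 24.1% did so.

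Genes that use or sense nuclear actin had 0 called of 16 tested and a median log2 fold change of -0.40. By an unadjusted p under 0.05, 2 were lower (SPIRE1 and ACTR8) and 0 higher, against 9.49% and 3.13% of all genes tested. Set against control A the median was 0.042, and set against control B it was -0.74. SRF had 731 and 796 normalized counts in the knockouts, between 594 (control A) and 1293 (control B). Its coactivator genes MKL1 and MKL2, which encode MRTF-A and MRTF-B, also overlapped between the groups. The gene with the highest base mean of the list was LMNA, the gene of lamin A and C. It had 6565 and 5573 in the knockouts against 6076 and 11760 (log2 fold change -0.56, adjusted p 0.567 in the authors' deposited table). SPIRE1, an actin nucleator gene, had 1067 and 1079 against 908 (control A) and 5924 (control B). ACTR8 had 513 and 511 against 624 (control A) and 1292 (control B). Both knockouts lay below both controls in 4 of the 16 genes, ACTR8 among them, and above both in 2. Among all tested genes with recovered reads, 21.0% and 24.1% did so.

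The genes most like each member were those with the smallest Euclidean distance over the 4 libraries, on log2 values centred per gene, among 11445 genes with a base mean of 100 or more. LEMD3, which encodes a protein of the inner nuclear membrane, lay nearest to IPO9 at 0.0052, followed by MFSD8 at 0.013. ZDHHC23 lay nearest to XPO6 at 0.016, and AMOTL2 was next at 0.042, with 2406 and 2598 normalized counts in the knockouts against 3365 and 3852. C7orf26 and PLS1 were nearest to MICAL1, at 0.087 and 0.090, and HLA-E and CNDP2 to MICAL2, at 0.066 and 0.099. CEP152 and PTS were nearest to MICAL3, at 0.034 and 0.038. Within a distance of 0.1 there were 138 genes for IPO9, 31 for XPO6, 49 for MICAL3, 5 for MICAL1 and 2 for MICAL2. With 4 libraries such likeness is a description of these libraries.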

How the data were processed

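Total RNA was sequenced after an integrity check, per the labels' protocols. Build hg19 and the tools STAR, RSEM, cutadapt and FastQC are named in the submitters' processing notes, without versions or order. The only file is a DESeq2 result table: the base mean, a signal as deposited by the authors, averages counts over size factors. Its log2 fold change and standard error (log2 scale), its Wald score, and its p-values, unadjusted and adjusted, are likewise the authors' deposited values. Calls are the authors' adjusted p under 0.05.

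Reads per library were recovered as the whole numbers that give a printed base mean. Through a negative binomial fit at the deposited standard error, the deposited fold change served as a further check. It had to be met within 0.001 log2, or 0.0001 from a base mean of 1000. At low base means a lone set of reads was kept without this check. The reads of IPO9-AS1 and MICALCL, for example, rest on the base mean alone. The search gave reads for 30543 of 30831 genes with a base mean above 0, none at base means of 10000 or more. RSEM estimates counts, so these are rounded estimates. The base mean alone, searched near the deposited fold change, left 4 sets of reads for CFL1, 3 for XPO6, 2 for IPO9 and 1 for each MICAL gene; the fold change then left 1 set for each gene, within 1e-05 log2. Limma 3.58.1 (R 4.3.3, trended prior, tested on simulated data) was fitted to log2(normalized count + 1) for means from 1 upward. That scale makes changes of low genes look smaller. The simulated data were drawn without control B, so that test cannot tell how limma handles a library that stands apart. Alternatives were filters, an adjusted p under 0.01, pseudocount 0.1, voom and leaving out libraries. Intervals of fold changes are 1.96 standard errors. Python 3.11.15, numpy 2.4.6, pandas 2.3.3, scipy 1.17.1 and matplotlib 3.10.9 were used.

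Named genes were CFL1, the members, the 2 genes nearest each member, and from each list up to 3 called genes in each direction. Where a list had none called, its tested member with the highest base mean was named. Others were chosen after their values were seen. Members and lists were chosen with earlier results of these data known. RefSeq promoter windows matched all 5 members, protein sequences were not used here, and no coordinates of the table's own build are given.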

Additional observations from a re-analysis of the deposited data

How the results depend on the processing

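No paired analysis was possible because the table has no column per sample and the recovered libraries cannot be tied to the replicate numbers of the labels. Of the members, 0 were called under every setting except the fit without control A, which called 3; leaving out 1 library gave 0 to 3 called members, each such fit taking the lone library of a group to vary like the other group. XPO6 and IPO9 had a negative difference under all 12 alternatives, but this sign could not have come out otherwise. The filters and the stricter adjusted p reuse the deposited fold change. Both knockouts lay below both controls at these genes, which fixes the sign of the other fits. The ranges of XPO6 and IPO9 when each library was left out were -0.57 to -0.40 and -0.35 to -0.079. MICAL2 was 0.012 and MICAL3 -0.14 without control B, both reversed; the cause was not tested. Of all genes, 93 were called by the authors, 62 at an adjusted p under 0.01 and 0 by limma at pseudocount 1, at 0.1, at a mean of at least 10 and by voom (507, 465, 257 and 436 with an unadjusted p under 0.05), and 0 to 8284 when each library was left out. CFL1 was not called by these 4 fits, at -1.96, -1.96, -1.96 and -1.95, nor without knockout A (-1.90), knockout B (-2.02) or control B (-1.40), against -2.53 without control A. Leaving out 1 library gave 0 to 7 called receptors, 0 to 4 Ran cycle and adaptor genes, 0 to 2 cargo genes, 0 to 9 MICAL partners and 0 to 11 nuclear actin users, the high counts all without control A. The difference in MICAL share between the groups ranged from -13.8 to 0.044 percentage points for MICAL1, -35.7 to 1.82 for MICAL2 and -1.86 to 49.4 for MICAL3. Genes with a base mean of 10000 or more, such as ACTB, ACTG1, KPNB1, IPO7, XPO1 and RAN, have no values per library, and neither has PFN1, for which more than 1 answer qualified.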
